A study of Mus musculus with 6 samples.

Results

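The genes described here encode collagens and the proteins that assemble, cross-link and degrade the extracellular matrix of mouse subcutaneous white fat. Members were every gene with a collagen chain symbol (Col, a number, a and a number) and 20 further matrix genes, where a probe set of the array was annotated to that gene alone. That gave 54 of the 12394 genes measured: 36 of the 44 collagen chain genes in the RefSeq table and 18 of the 20 others. Col6a4, Col6a5, Col6a6, Col8a2, Col23a1, Col24a1, Col27a1, Col28a1, Loxl2 and Fbn1 had no such probe set and were not analysed here. Each gene was represented by its probe set with the highest mean, so the choice did not use the difference between the groups.

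The groups were YY1bKO mice (n = 3 arrays), which carried floxed Yy1 alleles together with Ucp1Cre, and control mice (n = 3 arrays), which carried the floxed Yy1 alleles without Cre. All were 8 weeks old, were on a mixed C57BL6/129 background and had eaten high fat food for 2 weeks. Ucp1Cre is driven by the promoter of Ucp1, the uncoupling protein of thermogenic adipocytes, while the RNA came from whole fat tissue with its other cells. No group carried Ucp1Cre without the floxed alleles. The labels do not say that replicates came from separate animals, so p-values measure the spread between these arrays, which may be partly technical. In whole tissue, fewer cells of a type and less RNA per cell cannot be told apart.

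Fibrillar collagens I, III and V form the load-bearing fibres of connective tissue, collagen IV forms the sheet of basement membranes, and collagen VI forms beaded filaments around adipocytes. Collagen chains are secreted as helical trimers, trimmed, and covalently cross-linked by lysyl oxidases. Matrix metalloproteinases degrade them and tissue inhibitors of metalloproteinases (TIMPs) bind and block those enzymes. In white fat this matrix is laid down mainly by fibroblasts and adipocyte progenitors and is remodelled when the tissue expands.

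Levels are given as log2(intensity + 1), and differences as YY1bKO minus control on that log2 scale. Median intensities of the arrays ran from 123.15 to 130.35. The targeted gene Yy1 had log2 levels of 10.13, 10.41 and 10.20 in YY1bKO fat, against 10.33, 10.52 and 10.62 in control fat. Those groups overlapped and the log2 difference was -0.24 ± 0.12 (SE, adjusted p = 0.574). Markers of other tissues were uneven across the arrays, and the amount of other tissue was not tested. The 8 measured B cell markers summed to intensities of 365, 4995 and 1836 in YY1bKO fat and to 402, 3898 and 10211 in control fat, so YY1bKO replicate 1 and control replicate 1 stood low. Skin epidermis markers summed to 509, 513 and 521 in YY1bKO fat, against 452, 13783 and 372 in control fat, with only control replicate 2 high. Mammary and glandular epithelium markers were likewise highest in control replicate 2, and skeletal muscle markers in YY1bKO replicate 1. No probe set had an intensity of 0, so a marker without signal lies at the array's background.

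No collagen or matrix gene differed between YY1bKO and control fat after adjustment over all genes. Control replicate 1 was the highest of the 6 arrays for most of these genes, and control replicate 2 was often the lowest. Averaged over the members, the YY1bKO arrays lay between control replicate 1 and control replicates 2 and 3. Gene by gene, that full order held for 19 of the 54 (35.2%), against 4.92% of all genes. The 54 members deviated from their own means by an average log2 value of 0.01, -0.08 and 0.07 in YY1bKO fat, against 0.35, -0.19 and -0.16 in control fat. Their summed intensity was 105229, 95871 and 112994 in YY1bKO fat, against 135026, 77040 and 85905 in control fat. Control fat thus held both the highest and the lowest totals.

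**Figure D1:**
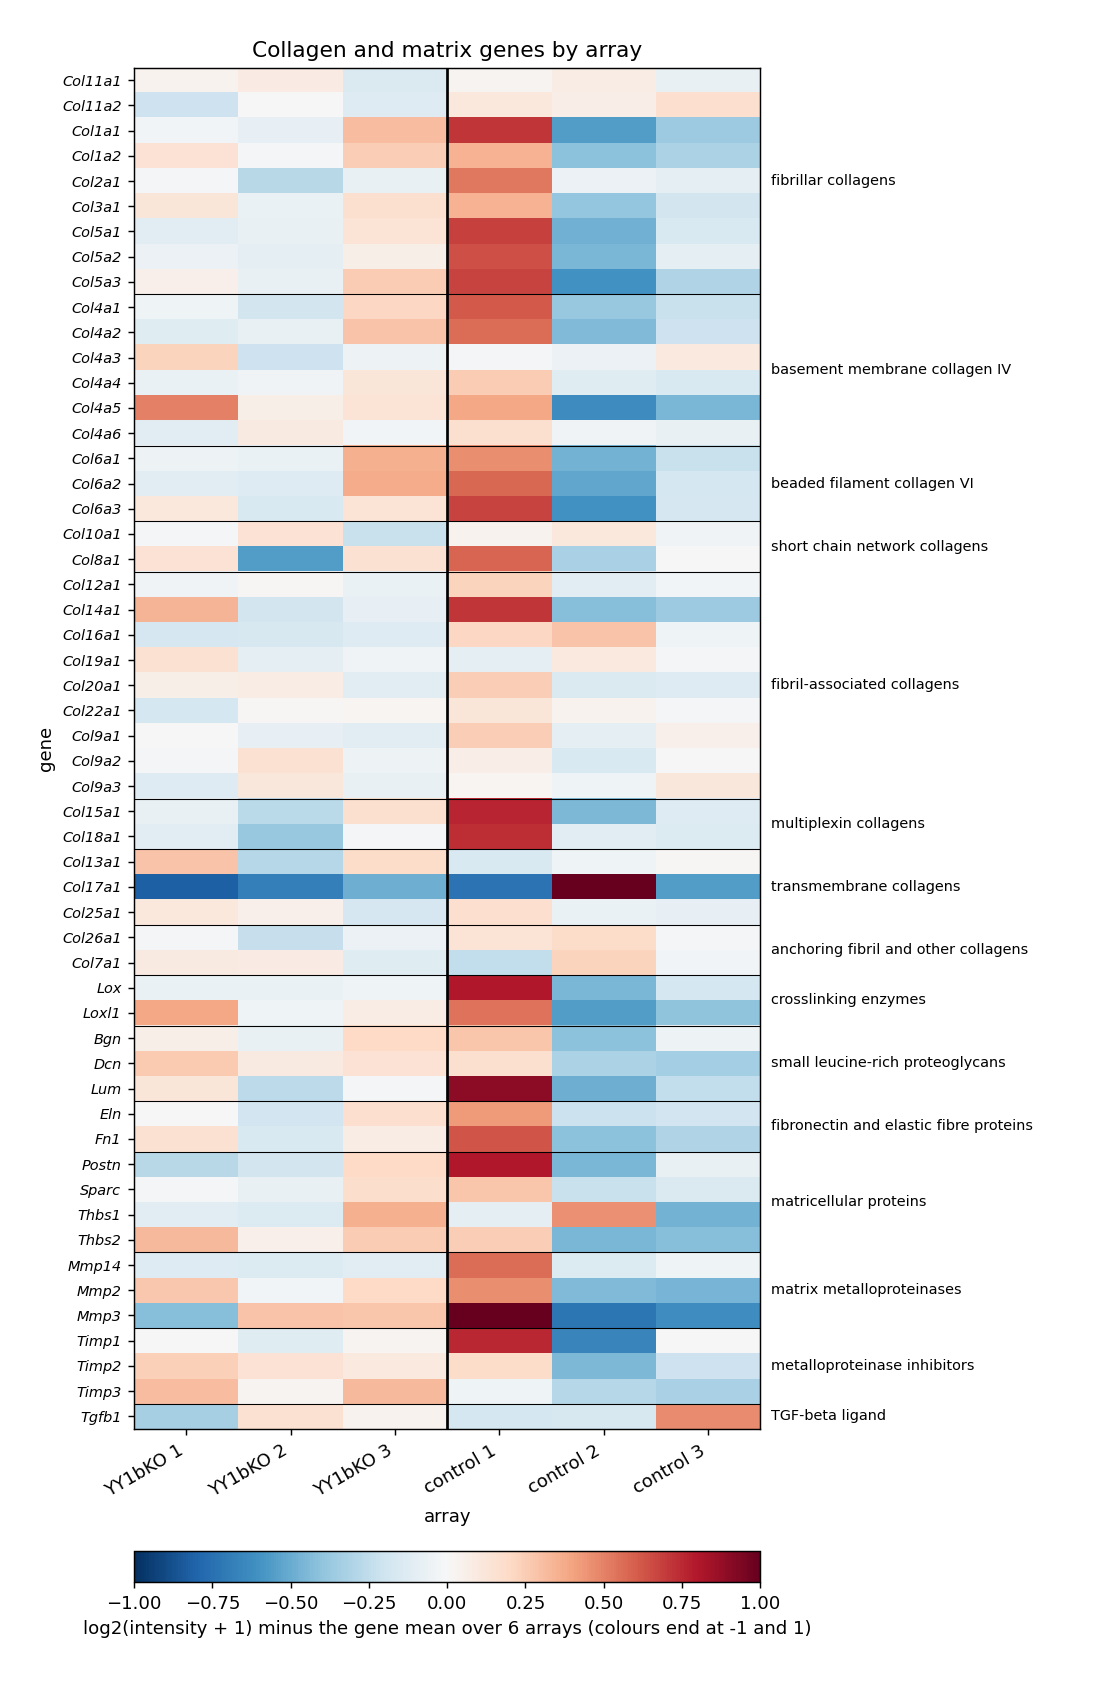
Log2(intensity + 1) minus the gene's mean over 6 arrays for the 54 collagen and matrix genes (rows, by role) in the YY1bKO and control arrays (columns). Colours end at a log2 deviation of 1 in either direction. The control replicate 1 column is mostly above the gene means and the control replicate 2 and 3 columns mostly below.

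In limma's test with Benjamini-Hochberg adjustment, 0 of the 54 members passed an adjusted p of 0.05, which 0.0323% of all genes did. At an unadjusted p of 0.05, 1 member was higher in YY1bKO fat, against 8.45% of all genes, and 2 members were lower, against 1.99%. All 3 YY1bKO arrays were above all 3 control arrays for 1 member, against 11.5% of all genes, and below them for 2 members, against 5%. The log2 difference was above 0 for 27 of the 54, with a median of 0.0020, as against 51% and a median of 0.0046 over all genes. The members' median thus lay near that of all genes.

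Control replicate 1 was the highest array for 35 members, or 64.8%, against 22.5% of all genes. For 19 members, or 35.2%, control replicate 1 was above every YY1bKO array while control replicates 2 and 3 were below every one, a pattern held by 4.92% of all genes and counted after the values were seen. Control replicate 2 was the lowest array for 30 members, or 55.6%, against 27.9% of all genes. The median SD of a member was 0.145 over the YY1bKO arrays and 0.379 over the control arrays, while over all genes these were 0.117 and 0.194. The control SD was the larger of the pair for 79.6% of members and for 74% of all genes.

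Without control replicate 1 the members lay higher in YY1bKO fat, though again 0 of 54 passed an adjusted p of 0.05, which 0.0403% of all genes did. The array left out was the highest for 64.8% of members, against 22.5% of all genes, so its removal by itself raises their differences. The shares below follow in part from that choice. With control replicate 2 left out instead, the members' median log2 difference was -0.10. The median log2 difference over the members was then 0.21, against 0.03 over all genes. An unadjusted p of 0.05 was passed by 13 members (24.1%) that were higher in YY1bKO fat, against 13.2% of all genes, and by 0 that were lower, against 4.62%. All 3 YY1bKO arrays were above both remaining control arrays for 24 members (44.4%), against 24.4% of all genes, and below both for 2, against 12.4%. A positive log2 difference was found for 38 members (70.4%), against 54.6% of all genes. The smallest adjusted p among the members was 0.338 (Timp3) over all arrays and 0.130 (Thbs2) without control replicate 1.

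Control replicate 1 lay above the YY1bKO arrays as a group. Over the members, the median log2 difference of the YY1bKO mean from control replicate 1 was -0.26. YY1bKO replicate 1, the other array low in B cell markers, gave a median of -0.29 on its own and was below control replicate 1 for 44 members (81.5%), against 49.6% of all genes. YY1bKO replicates 2 and 3 averaged above control replicates 2 and 3 for 37 members (68.5%), with a median log2 difference of 0.23, against 53.5% of all genes. The comparisons with control replicate 1 rest on that 1 array, so none of these was tested.

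**Figure D2:**
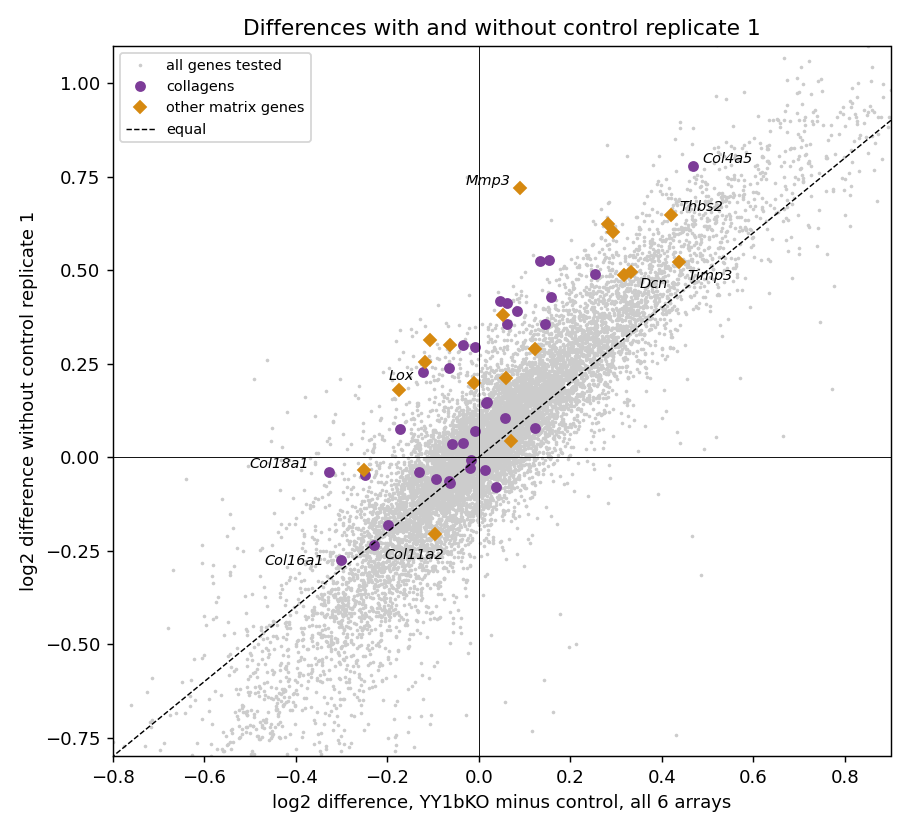
Log2 difference, YY1bKO minus control, of the 54 members with all 6 arrays (horizontal axis) and without control replicate 1 (vertical axis). Purple circles are collagens, orange diamonds other matrix genes and grey dots all genes tested. Col17a1 (-1.32 and -2.02) lies outside the axes. Most members lie above the dashed line of equal values.

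The fibrillar collagens had a median log2 difference of -0.02 over 9 genes, and 0.30 without control replicate 1. None of the 9 passed the adjusted threshold. Col3a1, the collagen III chain and the brightest collagen probe set, had log2 levels of 13.94, 13.76 and 13.98 in YY1bKO fat, against 14.17, 13.43 and 13.64 in control fat. Control replicate 1 was the highest array and the other control arrays were the lowest, and the log2 difference was 0.14 ± 0.20 (adjusted p = 0.848). The other probe set of Col3a1 gave a log2 difference of -0.14. Col1a2, a chain of collagen I, had log2 levels of 13.61, 13.46 and 13.72 in YY1bKO fat, against 13.82, 13.06 and 13.15 in control fat. It showed the same order of arrays, with a log2 difference of 0.25 ± 0.22 (adjusted p = 0.747) and of 0.49 without control replicate 1 (adjusted p = 0.150).

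Col1a1, its partner chain in collagen I, had log2 levels of 10.37, 10.32 and 10.71 in YY1bKO fat, against 11.12, 9.84 and 10.04 in control fat. The log2 difference was 0.13 with a 95% interval from -0.70 to 0.97, and 0.52 without control replicate 1. The collagen V chains Col5a1, Col5a2 and Col5a3, which regulate the diameter of collagen fibrils, had log2 differences of -0.03, -0.07 and 0.15. Col5a1 had log2 levels of 9.87, 9.92 and 10.13 in YY1bKO fat, against 10.68, 9.51 and 9.84 in control fat, and its 3 probe sets ran from -0.03 to 0.03. The groups again overlapped, with control replicate 1 on top.

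The cartilage collagens were dim. Probe sets of Col2a1, Col11a1 and Col11a2, which encode chains of cartilage fibrils, lay below the lower quartile of intensity on 5 or 6 of the 6 arrays. Col11a2 had log2 levels of 4.30, 4.50 and 4.38 in YY1bKO fat, against 4.61, 4.58 and 4.68 in control fat. These groups did not overlap, with a log2 difference of -0.23 (adjusted p = 0.475), at a level near the array's background. Col11a1 had log2 levels of 4.03, 4.08 and 3.85 in YY1bKO fat, against 4.02, 4.07 and 3.92 in control fat, and its probe sets disagreed in sign, at -0.02 and 0.41. Of the 54 members, 10 had a mean below the lower quartile of intensity. Their median log2 difference was -0.06, while over the other 44 it was 0.04, and 0.29 without control replicate 1.

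The promoters of 4 members are printed to set members that were highest in control replicate 1 (Col1a2 and Col3a1) beside the 2 with the smallest p-values in either fit (Timp3 and Thbs2). Each sequence is the 250 bases before the annotated start, from RefSeq on GRCm38.p6, read 5′ to 3′ along the gene. They lie at chr6:4505368-4505617 (plus strand, Col1a2), chr1:45311288-45311537 (plus strand, Col3a1), chr17:14694263-14694512 (minus strand, Thbs2) and chr10:86300162-86300411 (plus strand, Timp3). Capitals mark matches on either strand to the CCAAT box (CCAAT), the TATA box (TATAAA), the GC box (GGGCGG) and the core of the site bound by YY1 (AANATGG).
Col1a2: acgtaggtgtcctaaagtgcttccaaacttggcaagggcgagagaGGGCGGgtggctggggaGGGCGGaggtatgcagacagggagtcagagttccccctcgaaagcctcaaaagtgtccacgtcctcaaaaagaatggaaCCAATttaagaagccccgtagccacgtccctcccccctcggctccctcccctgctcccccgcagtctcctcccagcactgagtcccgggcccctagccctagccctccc
Col3a1: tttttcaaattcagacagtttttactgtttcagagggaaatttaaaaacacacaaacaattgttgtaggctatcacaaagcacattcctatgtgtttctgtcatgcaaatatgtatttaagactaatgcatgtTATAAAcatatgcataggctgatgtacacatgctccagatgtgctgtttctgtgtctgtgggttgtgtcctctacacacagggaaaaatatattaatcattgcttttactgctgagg
Thbs2: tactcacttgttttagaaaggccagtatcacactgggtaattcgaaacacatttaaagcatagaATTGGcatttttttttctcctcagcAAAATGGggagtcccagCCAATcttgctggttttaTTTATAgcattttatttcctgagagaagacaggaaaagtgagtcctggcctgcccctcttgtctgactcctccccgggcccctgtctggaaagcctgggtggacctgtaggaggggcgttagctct
Timp3: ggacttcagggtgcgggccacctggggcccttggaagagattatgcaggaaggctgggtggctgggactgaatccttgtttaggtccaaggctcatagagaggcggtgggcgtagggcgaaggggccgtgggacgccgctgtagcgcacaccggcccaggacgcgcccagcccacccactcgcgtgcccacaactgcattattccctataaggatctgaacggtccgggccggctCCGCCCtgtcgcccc
Col1a2 holds GGGCGG at 205 and 188 bases and CCAAT at 109 bases before its start, and Col3a1 holds TATAAA at 117 bases. Thbs2 holds CCAAT on the other strand at 186 bases and on the gene's strand at 144 bases, the YY1 core at 161 bases and TATAAA, on the other strand, at 126 bases. Timp3 holds GGGCGG, on the other strand, at 15 bases. The searched letters do not overlap one another in these windows.

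Windows were found for 37 of the 54 members, 41 windows in all because some genes have several starts. CCAAT or ATTGG was present in 16 of the 41 (39%), against 33.8% of all 32851 promoter windows. TATAAA or TTTATA was present in 8 (19.5%), against 12.4% of all windows, and GGGCGG or CCGCCC in 22 (53.7%), against 32.7%. The YY1 core, AANATGG or CCATNTT, was present in 4 (9.76%), against 12.4% of all windows. A match is only a run of letters and says nothing of binding.

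Several members are neighbours in the genome, among them Col4a1 with Col4a2, Col4a5 with Col4a6, Col3a1 with Col5a2, Col6a1 with Col6a2, and Dcn with Lum. Col4a1 and Col4a2 had log2 differences of -0.0088 and 0.06, and Col6a1 and Col6a2 of 0.16 and 0.08. Col3a1 and Col5a2 had log2 differences of 0.14 and -0.07. Col4a5 and Col4a6 lay further apart, at 0.47 and -0.03, as did Dcn and Lum, at 0.33 and -0.11. However, the Col4a6 probe set was below the lower quartile of intensity on all 6 arrays, and the other probe set of Col4a5 gave 0.13.

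Basement membrane collagen IV had a median log2 difference of 0.0032 over 6 chains, and 0.22 without control replicate 1. Col4a1, a chain found in nearly every basement membrane, had log2 levels of 12.64, 12.51 and 12.90 in YY1bKO fat, against 13.30, 12.31 and 12.47 in control fat. The groups overlapped and its 2 probe sets gave log2 differences of -0.0088 and 0.29. Its partner Col4a2 had a log2 difference of 0.06. Col4a5, a chain of more restricted basement membranes, had a log2 difference of 0.47 ± 0.29 (adjusted p = 0.647), and of 0.78 without control replicate 1 (adjusted p = 0.145). Its log2 levels were 7.44, 6.99 and 7.07 in YY1bKO fat, against 7.32, 6.30 and 6.48 in control fat, so only control replicate 1 overlapped the YY1bKO arrays. The other probe set of Col4a5 gave smaller log2 differences, 0.13 over all arrays and 0.37 without control replicate 1. Probe sets of Col4a4 and Col4a6 were below the lower quartile on all 6 arrays.

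The collagen VI chains Col6a1, Col6a2 and Col6a3 had log2 differences of 0.16, 0.08 and 0.06, and of 0.43, 0.39 and 0.41 without control replicate 1. Col6a3, the chain from which the adipose hormone endotrophin is cleaved, had log2 levels of 11.96, 11.70 and 11.99 in YY1bKO fat, against 12.53, 11.25 and 11.69 in control fat. The YY1bKO arrays lay inside the range of the control arrays. None of the 3 chains passed an unadjusted p of 0.05 in either fit.

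Fibril-associated collagens, which sit on the surface of fibrils, had a median log2 difference of -0.06 over 9 genes. Col16a1 had log2 levels of 7.62, 7.62 and 7.65 in YY1bKO fat, against 7.99, 8.07 and 7.74 in control fat. The groups did not overlap, and the log2 difference was -0.30 ± 0.11 (adjusted p = 0.437). Without control replicate 1 it was -0.27 (adjusted p = 0.332). Col14a1, which binds fibrils and decorin, had log2 levels of 9.71, 9.19 and 9.29 in YY1bKO fat, against 10.09, 8.95 and 9.01 in control fat. Control replicate 1 was again above and the other control arrays below all YY1bKO arrays. Col9a3, a cartilage chain, had log2 levels of 5.74, 5.98 and 5.80 in YY1bKO fat, against 5.89, 5.83 and 5.99 in control fat, and its 3 probe sets ran from -0.08 to 0.07.

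The multiplexins Col15a1 and Col18a1, basement membrane collagens that also carry glycosaminoglycan chains, had log2 differences of -0.12 and -0.33. Col18a1, the source of endostatin, had log2 levels of 9.22, 8.95 and 9.32 in YY1bKO fat, against 10.07, 9.22 and 9.19 in control fat. Control replicate 1 alone stood apart, and without it the log2 difference of Col18a1 was -0.04. Col8a1, a short chain collagen of vessel walls, had log2 levels of 6.63, 5.93 and 6.64 in YY1bKO fat, against 7.07, 6.16 and 6.49 in control fat. These groups overlapped.

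Col17a1, the transmembrane collagen of hemidesmosomes in skin, had the largest difference in size. Its log2 levels were 3.85, 3.98 and 4.18 in YY1bKO fat, against 3.93, 7.94 and 4.10 in control fat. It was above background only in control replicate 2, the array in which the keratin gene Krt14 had a log2 level of 12.45, against 4.68 to 5.25 on the other arrays. The log2 difference was -1.32 ± 1.06 (adjusted p = 0.729), and the part of skin or gland in it was not tested. Col25a1, another transmembrane collagen, had log2 levels of 6.75, 6.70 and 6.48 in YY1bKO fat, against 6.81, 6.58 and 6.57 in control fat. Col7a1, which forms the anchoring fibrils below the epidermis, had log2 levels of 6.26, 6.25 and 6.06 in YY1bKO fat, against 5.92, 6.39 and 6.15 in control fat. Col26a1 was dim, with log2 levels of 4.57, 4.34 and 4.52 in YY1bKO fat, against 4.71, 4.76 and 4.55 in control fat. All 3 genes overlapped between the groups.

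The lysyl oxidases, which cross-link collagen and elastin, had log2 differences of -0.12 (Lox) and 0.28 (Loxl1). Lox had log2 levels of 10.33, 10.33 and 10.36 in YY1bKO fat, against 11.20, 9.95 and 10.23 in control fat. The YY1bKO arrays were nearly equal and lay inside a control range of more than 1 log2 unit. Without control replicate 1 the log2 differences were 0.26 for Lox (adjusted p = 0.329) and 0.62 for Loxl1 (adjusted p = 0.169).

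Small leucine-rich proteoglycans bind collagen fibrils and limit their thickness. Dcn (decorin) had log2 levels of 13.52, 13.35 and 13.40 in YY1bKO fat, against 13.42, 12.94 and 12.92 in control fat. Control replicate 1 lay among the YY1bKO arrays and the other control arrays below them, with a log2 difference of 0.33 ± 0.16 (adjusted p = 0.551). Without control replicate 1 it was 0.50 (adjusted p = 0.139). Lum (lumican) and Bgn (biglycan) had log2 differences of -0.11 and 0.12.

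Fn1, whose product fibronectin is a scaffold for collagen assembly, had log2 levels of 11.78, 11.48 and 11.70 in YY1bKO fat, against 12.26, 11.22 and 11.33 in control fat. The groups overlapped, with a log2 difference of 0.05, and of 0.38 without control replicate 1 (adjusted p = 0.232). Eln, the elastin gene, had a log2 difference of -0.01.

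Matricellular proteins modulate contacts between cells and matrix. Sparc, which binds collagen and aids its deposition in fat, had log2 levels of 13.80, 13.74 and 13.99 in YY1bKO fat, against 14.09, 13.59 and 13.67 in control fat, and the groups overlapped. Thbs2, a thrombospondin that inhibits vessel growth, had log2 levels of 8.92, 8.64 and 8.85 in YY1bKO fat, against 8.84, 8.14 and 8.17 in control fat. Control replicate 1 lay among the YY1bKO arrays. The log2 difference was 0.42 ± 0.21 (adjusted p = 0.574), and 0.65 ± 0.12 without control replicate 1 (adjusted p = 0.130).

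Thbs1, which can activate latent TGF-beta, had log2 levels of 7.64, 7.61 and 8.10 in YY1bKO fat, against 7.66, 8.21 and 7.28 in control fat. Its highest array was control replicate 2, unlike most members, and its 2 probe sets gave log2 differences of -0.04 and 0.07. Postn (periostin) had a log2 difference of -0.17. Tgfb1, the ligand that drives collagen transcription in fibroblasts, had log2 levels of 6.22, 6.70 and 6.58 in YY1bKO fat, against 6.37, 6.39 and 7.02 in control fat. Its highest array was control replicate 3, and its log2 difference was -0.10.

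The metalloproteinases overlapped between the groups over all arrays. Mmp2, a gelatinase, had log2 levels of 10.36, 10.06 and 10.29 in YY1bKO fat, against 10.56, 9.65 and 9.62 in control fat. Its log2 difference was 0.29, and 0.60 without control replicate 1 (adjusted p = 0.143). Mmp3 (stromelysin) had the widest range after Col17a1, with log2 levels of 8.20, 8.91 and 8.90 in YY1bKO fat, against 9.84, 7.90 and 8.00 in control fat. Its log2 difference was 0.09 ± 0.55, and 0.72 without control replicate 1 (adjusted p = 0.240). Mmp14, the membrane-bound enzyme that activates pro-MMP2, had a log2 difference of -0.25, and -0.03 without that array, while its other probe set gave -0.02 and 0.19.

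Timp3, the inhibitor that binds to the matrix itself, had the smallest p-value of any member over all arrays. Its log2 levels were 11.39, 11.11 and 11.40 in YY1bKO fat, against 11.03, 10.80 and 10.75 in control fat. All YY1bKO arrays were above all control arrays, control replicate 1 included. The log2 difference was 0.44 ± 0.13 (95% interval 0.12 to 0.75, adjusted p = 0.338), and it was the 1 member higher at an unadjusted p of 0.05. Its 4 probe sets gave log2 differences from 0.31 to 0.50, and without control replicate 1 the difference was 0.52 (adjusted p = 0.159). Timp2 had log2 levels of 12.002, 11.91 and 11.86 in YY1bKO fat, against 11.95, 11.31 and 11.56 in control fat. Only control replicate 1 overlapped the YY1bKO arrays, and the 6 probe sets of Timp2 ran from -0.03 to 0.38. Timp1, an inhibitor induced in inflamed tissue, had a log2 difference of -0.06.

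**Figure D3:**
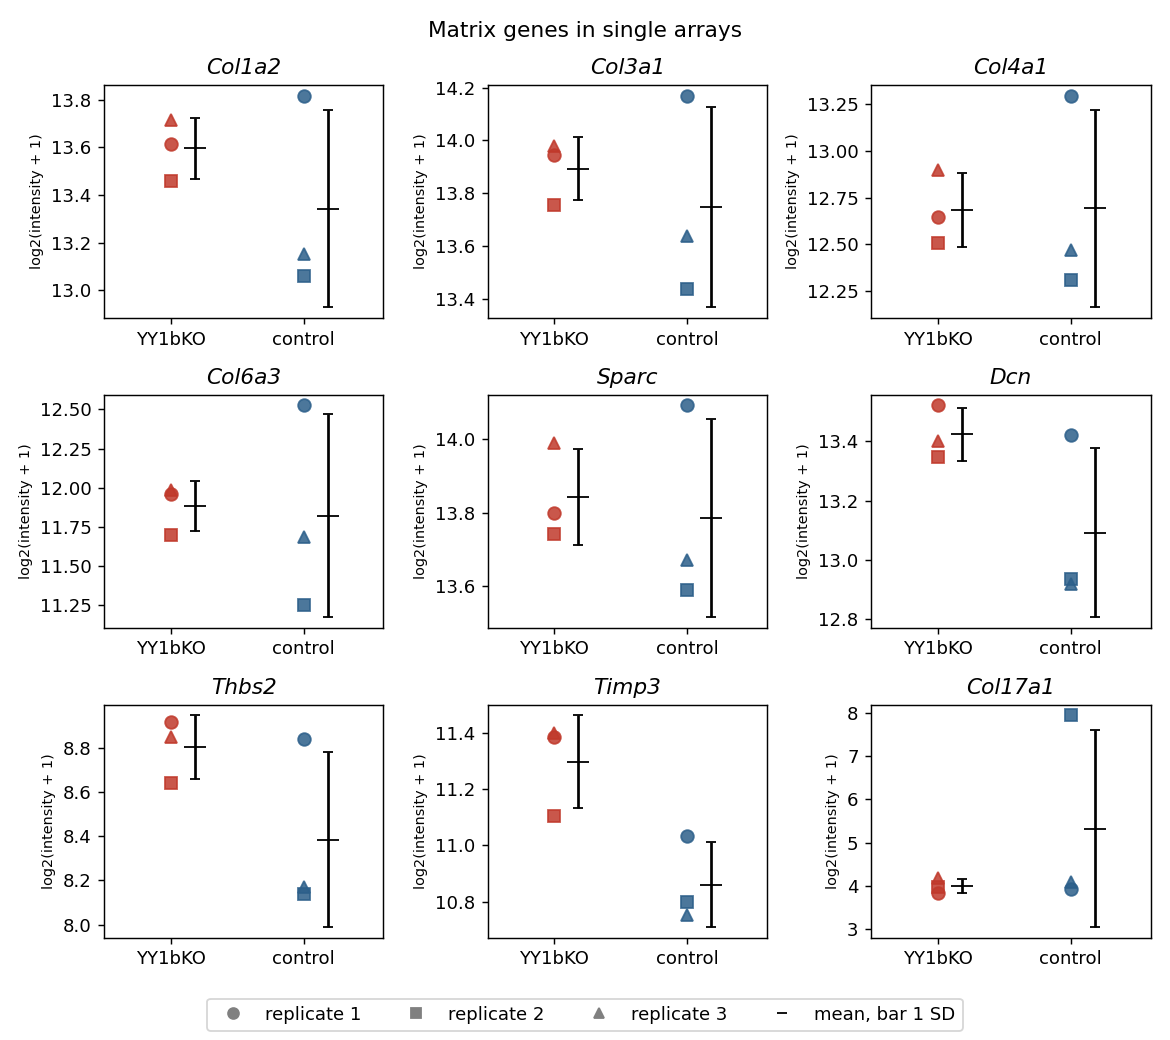
Log2(intensity + 1) of 9 members in each array, YY1bKO left and control right, with shapes for replicates and bars for the mean ± 1 SD (n = 3). Control replicate 1 tops 5 panels (Col1a2, Col3a1, Col4a1, Col6a3 and Sparc), Timp3 shows groups that do not overlap, and Col17a1 is high only in control replicate 2.

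Genes that act beside the members gave 0 calls at an adjusted p of 0.05 in each of 6 lists, in both fits. Collagen synthesis and processing genes (19 of 26 measured) had a median log2 difference of 0.13, and 0.35 without control replicate 1. At an unadjusted p of 0.05, 0 were higher and 0 lower over all arrays, against 8.45% and 1.99% of all genes. Without that array 9 were higher, against 13.2% of all genes, and the counts of the other lists stand against the same shares. P4ha1, a prolyl hydroxylase subunit, had log2 levels of 7.99, 7.84 and 8.01 in YY1bKO fat, against 7.64, 7.61 and 7.82 in control fat. The groups stood apart only narrowly, with a log2 difference of 0.25 (adjusted p = 0.480), and the other probe set of P4ha1 gave -0.03.

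Laminins and other basement membrane genes (14 of 15 measured) had a median log2 difference of 0.12, and 0.31 without control replicate 1, with 1 gene higher at an unadjusted p of 0.05 over all arrays and 6 without that array. Lamb2, a laminin beta chain, had a log2 difference of 0.45 (adjusted p = 0.452). Lamb3, another beta chain with the next smallest p, went the other way, at -0.45 (adjusted p = 0.579). Of the 14 genes, 10 had a log2 difference above 0 and 4 below. Other proteoglycans and glycoproteins (28 of 33 measured) had a median of 0.21, and 0.47 without control replicate 1, with 5 genes higher at that p over all arrays and 15 without that array. Smoc1, a calcium-binding matrix protein, had log2 levels of 10.87, 10.33 and 10.75 in YY1bKO fat, against 10.31, 9.78 and 9.97 in control fat. Fbln1 (fibulin 1) had log2 levels of 8.03, 7.28 and 7.75 in YY1bKO fat, against 7.27, 6.84 and 6.75 in control fat. In neither gene did the groups overlap, with log2 differences of 0.63 (adjusted p = 0.359) and 0.73 (adjusted p = 0.370), the second across a narrow gap. Tnxb, which spaces collagen fibrils, had a log2 difference of 0.57 (adjusted p = 0.437).

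Of other proteases and inhibitors (26 of 29 measured), 2 were higher and 1 lower at an unadjusted p of 0.05, with a median log2 difference of -0.10. Without control replicate 1 the median was 0.06, with 5 genes higher and 1 lower at that p. The inhibitor Timp4 had log2 levels of 11.03, 10.81 and 10.84 in YY1bKO fat, against 10.43, 10.33 and 10.54 in control fat. The groups did not overlap, as for Timp3, with a log2 difference of 0.46 (adjusted p = 0.257). Reck, a membrane-bound inhibitor, had a log2 difference of 0.39 (adjusted p = 0.475). Ctsl, a lysosomal protease, had a log2 difference of -0.43 (adjusted p = 0.370), with groups that did not overlap.

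Matrix receptors (21 of 24 measured) had a median log2 difference of -0.07, with 0 higher and 1 lower at an unadjusted p of 0.05. Without control replicate 1 the median was -0.06, with 2 higher and 1 lower. The 1 lower over all arrays was Cd44, a hyaluronan receptor abundant on leukocytes, with log2 levels of 8.67, 9.03 and 8.64 in YY1bKO fat, against 9.45, 9.79 and 9.93 in control fat. The groups did not overlap, with a log2 difference of -0.94 ± 0.17 (adjusted p = 0.173). The TGF-beta pathway (25 of 25 measured) had a median log2 difference of 0.01, with 2 genes higher and 2 lower at that p, and without control replicate 1 it had a median of 0.10, with 4 higher and 1 lower. Its smallest p was that of Skil, an inhibitor of SMAD signalling, at a log2 difference of -0.55 (adjusted p = 0.314).

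Markers of the cells known to make this matrix were lowest in the same control arrays. Fibroblast and adipose progenitor markers (13 of 14 measured) summed to intensities of 48747, 45598 and 49202 in YY1bKO fat, against 51766, 37040 and 41379 in control fat. Of these 13 markers 10 had a log2 difference above 0 and 3 below, from -0.37 to 0.67, with a median of 0.21. The progenitor marker Pi16 had log2 levels of 10.89, 10.84 and 10.91 in YY1bKO fat, against 10.73, 9.91 and 9.998 in control fat. Control replicate 1 was its highest control array but lay below every YY1bKO array, unlike in most members. The groups of Pi16 thus did not overlap, which held for 2 of the 13 markers, against 11.5% of all genes. Mature adipocyte markers summed to 107243, 99134 and 106018 in YY1bKO fat, against 107339, 83312 and 88109 in control fat, and endothelial markers to 6800, 6816 and 8382, against 7777, 4548 and 5868. All 3 lists were lowest in control replicates 2 and 3, and their part in the members' values was not tested. By mean log2 deviation, smooth muscle and pericyte markers were also lowest there, at -0.34 and -0.12, against -0.10 in YY1bKO replicate 2. By summed intensity, however, YY1bKO replicate 2 (9875) lay below control replicate 3 (9950) for that list. Adipoq, which defines adipocytes, had log2 levels from 14.15 to 14.29 in YY1bKO fat and from 13.96 to 14.24 in control fat, so the fat label held on every array.

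**Figure D4:**
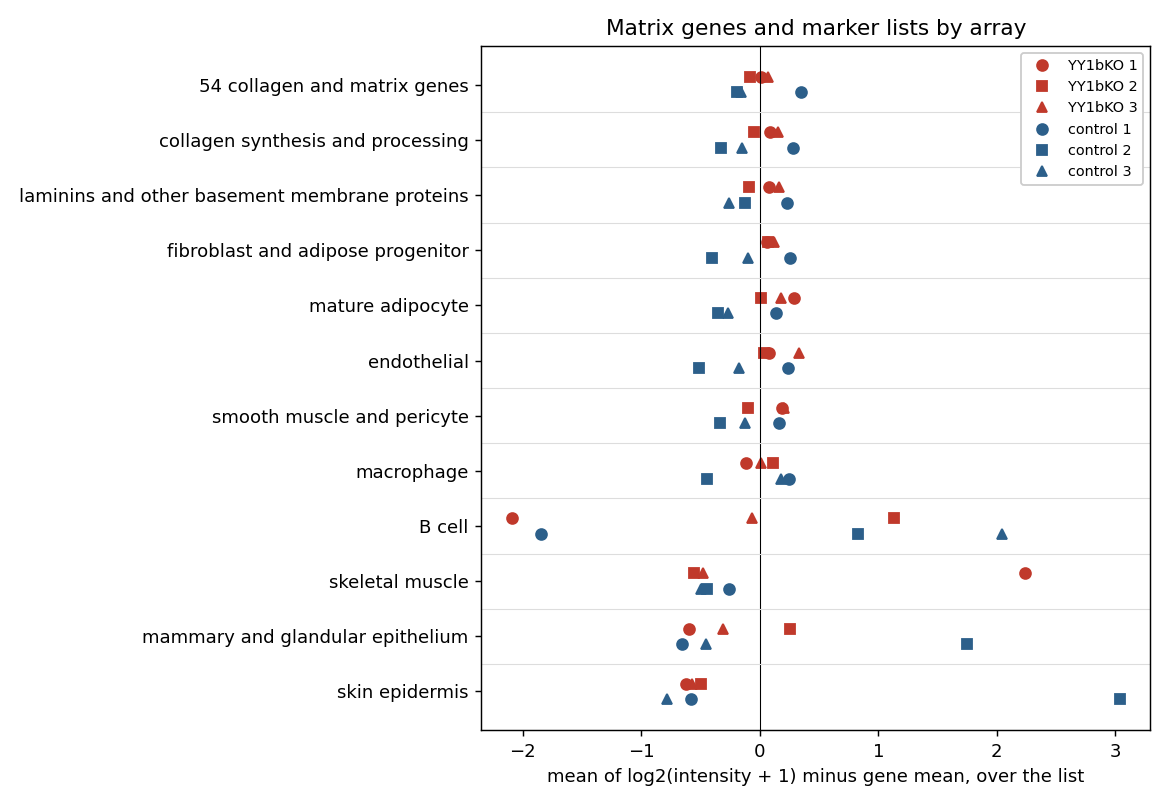
Mean deviation of each gene list (rows) from its genes' means, in log2(intensity + 1), with 1 symbol per array, YY1bKO above control in each row. The rows of the 54 genes, collagen synthesis, laminins, fibroblasts, adipocytes, endothelium and smooth muscle are lowest in control replicates 2 and 3. B cell markers are lowest in replicate 1 of both groups, and skin markers are high in control replicate 2.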

How the data were processed

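RNA from subcutaneous white fat of YY1bKO (3 arrays) and control (3 arrays) mice was hybridised to 1-colour Affymetrix arrays. The deposited values are intensity values made by the authors with RMA, per the submitters' processing notes; values from 5.4 to 25730.1 show a linear scale, and the RMA version was not given in the sources used here. RMA makes the arrays' distributions alike, so a change in total RNA cannot appear. The deposited intensities were transformed to log2(intensity + 1) and fitted over all 12394 genes with limma 3.58.1 in R 4.3.3 (lmFit, eBayes), with 2-sided p-values and Benjamini-Hochberg adjustment at 0.05. Total degrees of freedom were 6.11, and 5.14 without control replicate 1.

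Of 22690 probe sets, 20393 carried 1 gene symbol, 691 several and 1606 none; the last 2 kinds were not used. Each gene took its probe set with the highest mean, with no filter on dim values. Symbols of 20364 probe sets matched RefSeq genes (GRCm38.p6). The number of arrays limits the precision. Members, lists and tests were chosen with earlier results of these data known. Levels in every array are given for members past the threshold, the brightest 3 collagens, the brightest member of each role, the 3 higher and 3 lower members of smallest p in each fit, and members whose probe sets disagreed in sign, with a few others of the text. Of other lists, up to 3 genes of smallest p are named. The fit was tested on simulated data. Alternatives were other normalisations, pseudocounts, filters, probe set rules, fits and left-out arrays.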

Additional observations from a re-analysis of the deposited data

How the results depend on the processing

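No member passed an adjusted p of 0.05 over all arrays under any alternative run. Apart from the run without control replicate 1, shares over all genes were not counted for these runs. The counts below therefore cannot be set against all genes. Groups also stand apart more often with fewer arrays. Over all genes, 11.5% were higher without overlap with 6 arrays and 24.4% without control replicate 1. The count of members higher at an unadjusted p of 0.05 (1) was 2 under quantile normalisation and under the probe set of largest variance, 3 with the mean of probe sets, 4 with array weights, 4 with the replicate block, 11 without control 1 and YY1bKO 1, and 0 without control 2 and YY1bKO 1. The count lower (2) was 1 under quantile normalisation, array medians subtracted, a pseudocount of 16, both filters on dim genes, the largest variance, the robust fit and array weights, and 0 with the block and without either of those pairs. Members higher without overlap (1) numbered 2 under quantile normalisation, the mean of probe sets and the largest variance, and 25 without control 1 and YY1bKO 1. Those lower without overlap (2) numbered 1 under both filters, 4 without control 1 and YY1bKO 1 and 6 without control 2 and YY1bKO 1. Leaving out 1 array at a time gave 0 to 13 higher and 0 to 1 lower at the unadjusted p, and 1 to 24 higher and 2 to 4 lower without overlap. The members' median (0.0020) ran from -0.10 without control 2 to 0.21 without control 1, and was 0.23 without control 1 and YY1bKO 1. Without control 1, the median (0.21) was 0.30 and 0.36 under the filters and 0.26 with array weights, and ran from 0.11 to 0.31 with a further array left out. There the count lower without overlap (2) was 1 under each filter and 3 to 7 with a further array left out, and 8 to 19 were higher and 0 to 2 lower at the unadjusted p. With control 3 left out as well, 1 member (Col17a1, -3.94, adjusted p = 0.000676) passed against control 2 alone, whose spread is then assumed to be like that of the YY1bKO arrays.

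Role medians moved to 0.037 (anchoring and other collagens, filter at the lower quartile), 0.25 (collagen IV) and 0.33 (fibrillar, ranging from -0.11 to 0.30 with 1 array left out) without control 1 and YY1bKO 1, and 0.046 (fibril-associated, largest variance). The metalloproteinase median ran from -0.25 to 0.60. Single genes changed sign as follows. Without control 2 and YY1bKO 1, log2 differences were -0.063 (Col1a1), -0.037 (Col3a1), -0.26 (Col6a3), -0.31 (Col14a1), -0.20 (Fn1), -0.017 (Sparc) and 0.065 (Col17a1). Without control 1 and YY1bKO 1 they were 0.35 (Col5a1), 0.31 (Col4a1), 0.017 (Col25a1), -0.12 (Col7a1) and 0.26 (Lox). With the largest variance they were -0.14 (Col3a1), 0.033 (Col5a1), 0.41 (Col11a1), 0.29 (Col4a1) and 0.072 (Col9a3), with the mean of probe sets 0.0041 (Col5a1), 0.20 (Col11a1) and 0.14 (Col4a1), with array weights 0.11 (Col5a1), 0.15 (Col4a1), -0.031 (Col7a1) and 0.0040 (Lox), and with quantile normalisation 0.021 (Col11a1) and 0.0064 (Col25a1). In the fit without control 1 they were 0.011, 0.012, 0.20 and 0.41 (Col11a1, quantile, medians, mean, largest variance), 0.016 and 0.11 (Col9a3, quantile, largest variance), -0.0093 (Col8a1), 0.059 (Col18a1) and -0.050 (Thbs1) with the mean, and 0.018 (Col18a1) with array weights. The causes were not tested.

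With 1 array left out, ranges that crossed 0 were -0.11 to 0.52 (Col1a1), -0.011 to 0.36 (Col3a1), -0.28 to 0.30 (Col5a1), -0.064 to 0.051 (Col11a1), -0.20 to 0.29 (Col4a1), -0.23 to 0.41 (Col6a3), -0.15 to 0.42 (Col14a1), -0.38 to 0.076 (Col8a1), -0.063 to 0.073 (Col25a1), -0.079 to 0.16 (Col7a1), -0.37 to 0.26 (Lox), -0.14 to 0.38 (Fn1), -0.039 to 0.21 (Sparc), -0.15 to 0.32 (Thbs1) and -0.21 to 0.12 (Tgfb1). In the fit without control 1 they were -0.086 to 0.068 (Col11a1), -0.15 to 0.011 (Col9a3), -0.085 to 0.31 (Col8a1), -0.12 to 0.068 (Col18a1), -0.20 to 0.044 (Col7a1), -0.42 to 0.51 (Thbs1) and -0.52 to 0.11 (Tgfb1), and -3.94 to -0.10 for Col17a1. Same-numbered arrays of the groups had correlated deviations of 0.607, 0.097 and 0.031, while differently numbered arrays ran from -0.645 to 0.598. The labels do not say whether the numbers pair the arrays, and the block values above stand as a check. Members near background, 10 of the 54, carry little information on these arrays.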

Other observations

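Some genes of the cell type lists differed without overlap between YY1bKO and control fat, though none passed the adjusted threshold. Over all genes, 11.5% were higher without overlap and 5% lower. Genes higher without overlap numbered 3 of 10 (mature adipocyte), 2 of 13 (fibroblast), 2 of 10 (smooth muscle) and 1 of 10 (macrophage). They numbered 1 of 12 in each of skeletal muscle and mammary epithelium, and 1 of 4 in nerve. The endothelial, B cell, skin and cartilage lists had 0. With lists this short, 1 gene shifts a share widely, and no list was tested. Those lower without overlap numbered 2 of 9 (cartilage and tendon), 1 of 10 (skin) and 1 of 4 (nerve), and 0 in the other lists. The 3 genes given below were all higher. Mbp, a protein of myelin, had log2 levels of 10.86, 10.56 and 10.15 in YY1bKO fat, against 9.73, 9.50 and 9.54 in control fat (log2 difference 0.93, adjusted p = 0.211). Its 8 probe sets disagreed in sign, from -0.32 to 1.00, and the other 3 measured nerve and Schwann cell markers had log2 differences below 0 (median of the 4 -0.16). Cd163, a scavenger receptor of resident macrophages, had log2 levels of 9.85, 9.92 and 10.31 in YY1bKO fat, against 9.61, 9.32 and 9.16 in control fat (log2 difference 0.67, adjusted p = 0.295). Of the 10 macrophage markers 5 lay above 0 and 5 below, with a median log2 difference of -0.01. Cnn1, a contractile protein of smooth muscle, had log2 levels of 5.65, 5.43 and 5.68 in YY1bKO fat, against 5.24, 4.75 and 5.04 in control fat (log2 difference 0.58, adjusted p = 0.295). Cnn1 was dim, and its level in control replicate 2 lay below that array's lower quartile of intensity (30.8). Of the 10 smooth muscle and pericyte markers 8 lay above 0 and 2 below, with a median log2 difference of 0.17. All 3 kept their direction without control replicate 1. These genes were chosen after their values were seen.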
